A study of Homo sapiens with 3 samples.

Results

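The FOS, JUN, ATF and EGR genes studied here are 10 transcription factors of the AP-1 and immediate early class, namely FOS, FOSB, FOSL1, FOSL2, JUN, JUNB, JUND, ATF3, BATF3 and EGR1. They were taken as every probe set that names 1 of these genes alone, which gave 24 probe sets for the 10 genes, out of 19752 genes measured. Gene expression was measured in 3 samples on Affymetrix U133 Plus 2.0 arrays, with 1 array each. IMR-32 and NGP are MYCN-amplified neuroblastoma cell lines, and Reference is a pool of mRNA from 16 different cancer cell lines. No treatment is named for any sample in the sources used here. IMR-32 was grown in Minimum Essential Medium and NGP in RPMI 1640, both with fetal bovine serum. Line and culture medium therefore cannot be told apart. The cancer types in the pool, and how its lines were grown, are not given in the sources used here. Each value is a MAS5 signal on a linear scale, and the value of a gene is the median log2 ratio over its probe sets.

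AP-1 is a dimer of basic leucine zipper proteins. JUN proteins can pair with each other or with FOS proteins, whereas FOS proteins need a JUN partner to bind DNA, so that the amounts of the individual members set which dimers a cell can form. ATF3 and BATF3 join the same network through their own leucine zippers, and EGR1 is a zinc finger factor induced by the same signals. Several of these genes are immediate early genes, which are switched on within minutes of stimulation by growth factors, serum, depolarization or stress through MAP kinases, serum response factor and CREB. In neuroblastoma, AP-1 factors are best known from the mesenchymal-type cell state, as opposed to the sympathoadrenal state.

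The promoters of 4 members are shown, each with a motif through which serum response factor or CREB is known to act on genes of this class. The motif of serum response factor was found in EGR1 alone, and sites beyond the 250 bases shown were not searched. The 4 members are FOS, at the head of the class, FOSB, its closest relative, EGR1, and JUND, the JUN gene whose value in NGP lay above the pool. Each is the 250 bases before the start of transcription, 5′ to 3′ on the strand of the gene, from RefSeq on GRCh38.p14. FOS lies at chr14:75278578-75278827 on the plus strand, FOSB at chr19:45467746-45467995 on the plus strand, EGR1 at chr5:138465229-138465478 on the plus strand and JUND at chr19:18281623-18281872 on the minus strand. Capitals mark the CArG box, which serum response factor binds, the cyclic AMP response element TGACGTCA, and its shorter core TGACG, all searched on both strands.
FOS: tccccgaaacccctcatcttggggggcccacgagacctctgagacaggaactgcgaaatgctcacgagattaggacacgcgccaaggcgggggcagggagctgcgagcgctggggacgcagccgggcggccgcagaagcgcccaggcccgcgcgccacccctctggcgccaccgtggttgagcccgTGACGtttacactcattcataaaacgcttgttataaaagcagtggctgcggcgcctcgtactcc
FOSB: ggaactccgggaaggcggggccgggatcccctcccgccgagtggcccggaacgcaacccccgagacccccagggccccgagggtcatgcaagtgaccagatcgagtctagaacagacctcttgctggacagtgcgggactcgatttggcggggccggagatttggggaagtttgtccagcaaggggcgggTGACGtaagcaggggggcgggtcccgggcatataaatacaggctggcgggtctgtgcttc
EGR1: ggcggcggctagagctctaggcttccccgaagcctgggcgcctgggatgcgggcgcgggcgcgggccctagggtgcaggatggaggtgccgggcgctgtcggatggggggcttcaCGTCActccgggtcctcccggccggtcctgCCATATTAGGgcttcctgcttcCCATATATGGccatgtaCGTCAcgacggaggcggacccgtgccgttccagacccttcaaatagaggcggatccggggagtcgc
JUND: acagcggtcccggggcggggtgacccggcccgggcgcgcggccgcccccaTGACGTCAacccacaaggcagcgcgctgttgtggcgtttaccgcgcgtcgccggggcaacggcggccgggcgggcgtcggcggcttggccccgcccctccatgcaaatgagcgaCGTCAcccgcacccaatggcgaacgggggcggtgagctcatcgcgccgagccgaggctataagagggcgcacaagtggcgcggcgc

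Among the 8 members with a promoter in the table, EGR1 alone had a CArG box in this window, and it holds 2 of them, starting 105 and 83 bases before the start site. A CArG box was found in 1.16% of the 35116 promoter windows of this length. The full element TGACGTCA was found in JUND alone, 200 bases before the start site, and in 1.65% of all windows. Its core TGACG, which the full element contains, was present in 7 of these 8 members, namely FOS, FOSB, FOSL2, JUN, JUNB, JUND and EGR1, against 21.2% of all windows. In FOS and FOSB it starts 64 and 60 bases before the start site. The windows of the 7 members with the core had a GC content from 62% (JUN) to 74.8% (JUND), beside a median of 58% over all windows. The 2 windows of ATF3 searched here, which lack the core, were at 49.2% and 44.8%. Any other start site of ATF3 was not searched. The part of GC content in this count was not tested. The AP-1 site TGANTCA (6.57% of all windows) and the EGR site GCGGGGGCG (4.72%) were found in none of these members' windows. A match is a string of letters and was not tested for binding. Promoters of FOSL1 and BATF3 were not analysed here.

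**Figure D1:**
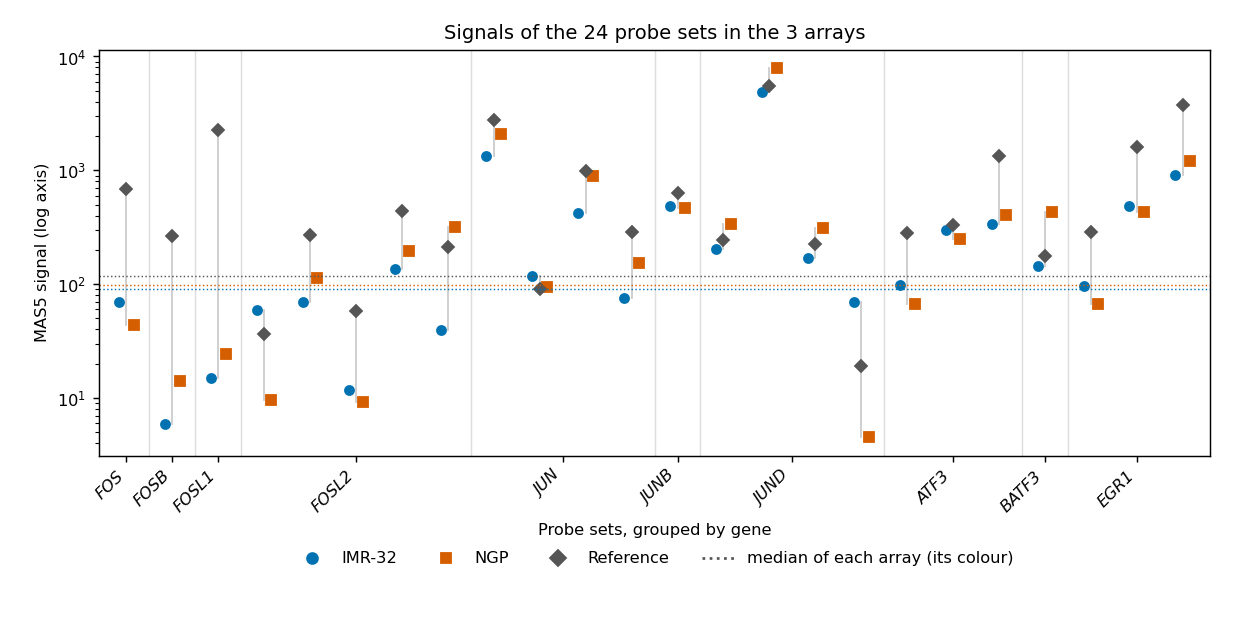
MAS5 signals (y-axis, log scale) of the 24 probe sets, grouped by gene (x-axis), in IMR-32 (circles), NGP (squares) and Reference (diamonds), with the median of each array as a dotted line in its colour. For FOS, FOSB and FOSL1 both lines lie below the array medians and the pool lies above, whereas JUNB and most JUND probe sets lie close together in the 3 samples.

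FOSL1, FOSB and FOS were the members furthest below the pool in both lines. FOS lies at chr14:75278828-75282230, FOSB at chr19:45467996-45475179, FOSL1 at chr11:65892049-65900545 and FOSL2 at chr2:28392858-28417317 (GRCh38.p14, RefSeq). FOSL1, also called FRA-1, had a signal of 15.0 in IMR-32, 24.3 in NGP and 2275 in Reference. Both lines were thus far below the pool and close to each other. The log2 ratio over Reference was -7.25 in IMR-32 and -6.55 in NGP, so that the pool was 152-fold and 93.7-fold higher. FOSB, a FOS relative induced in neurons by activity, had signals of 5.94 in IMR-32, 14.1 in NGP and 264 in Reference, with log2 ratios of -5.47 and -4.22. FOS itself had signals of 70.0 in IMR-32, 43.8 in NGP and 689 in Reference, with log2 ratios of -3.30 and -3.98. These were the members within the bottom 7% of ratios, the limit by which the study's methods call a gene underexpressed. That limit lay at -2.83 in IMR-32 and -2.88 in NGP. In IMR-32, 3 of 10 members were called lower and 0 higher, and in NGP likewise 3 were called lower and 0 higher, where 7% of all genes are called at each end of each comparison. The same 3 genes, FOS, FOSB and FOSL1, were called in both lines. The 2 comparisons share the Reference array, so that a high pool value enters both.

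FOS, FOSB and FOSL1 each have 1 probe set, and the signals of both lines lay below the median of their arrays (89.9 in IMR-32 and 98.8 in NGP), where MAS5 signals are least certain. The size of these ratios is therefore not firm. With the line's signal raised to the median of its array, FOSL1 was still 25.3-fold higher in the pool than in IMR-32 and 23.0-fold higher than in NGP. FOS was 7.66-fold and 6.98-fold higher, and FOSB 2.94-fold and 2.67-fold higher. The order of the 3 genes thus depends on the dim signals, with FOSB below FOS in the deposited values and above it with this floor, while FOSL1 came lowest both ways.

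FOSL2, or FRA-2, differed from its relatives. Over Reference its log2 ratio was -1.95 in IMR-32 and -1.23 in NGP, neither past a cut-off. Its 5 probe sets disagreed. The brightest in the pool had signals of 136 in IMR-32, 196 in NGP and 441 in Reference, with the order of the samples as in the gene's median ratio. Another had 39.4 in IMR-32, 316 in NGP and 211 in Reference, and was thus higher in NGP than in the pool. A further one had 58.9, 9.67 and 36.5 in the same order, all below the medians of their arrays. Of the 5 probe sets, 4 were below the pool in IMR-32 and 4 in NGP.

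The median ratios of the JUN genes were nearer to the pool. JUN lies at chr1:58780791-58784047, and JUNB (chr19:12791486-12793315) and JUND (chr19:18279694-18281622) share chromosome 19. JUN, the most studied of the partners, had a log2 ratio of -1.14 in IMR-32 and -0.27 in NGP, with 4 probe sets. Its brightest probe set had signals of 1330 in IMR-32, 2104 in NGP and 2770 in Reference, and the next brightest 420, 888 and 979. In both, IMR-32 was lowest and NGP lay between IMR-32 and the pool. Another probe set, at 75.5, 153 and 284, had the same order and the lowest log2 ratios, -1.91 in IMR-32 and -0.90 in NGP. It gives the value of JUN where probe sets open to cross-hybridization (names ending in _s_at or _x_at) are left out, which puts the pool 3.77-fold higher than IMR-32 in place of 2.20-fold. The fourth went the other way, with 118 in IMR-32, 94.5 in NGP and 91.0 in Reference. JUNB, which can oppose JUN on some promoters, had signals of 488 in IMR-32, 464 in NGP and 632 in Reference from 1 probe set, and log2 ratios of -0.37 and -0.44. Both lines lay close to the pool and to each other. JUND, the member of the family made in most resting cells, had signals of 4903 in IMR-32, 7861 in NGP and 5544 in Reference in its brightest probe set. The next 2 JUND probe sets showed the same order, from 171 to 205 in IMR-32, 310 to 339 in NGP and 227 to 246 in Reference. The fourth had 69.9, 4.54 and 18.9, below the median of each array, and went the other way. The median log2 ratio of JUND was -0.22 in IMR-32 and 0.46 in NGP. In IMR-32 it was 0.01 once ratios were centred on the median of all genes, and with the mean in place of the median over probe sets the signs turned, to 0.26 in IMR-32 and -0.16 in NGP, through the dim probe set.

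**Figure D2:**
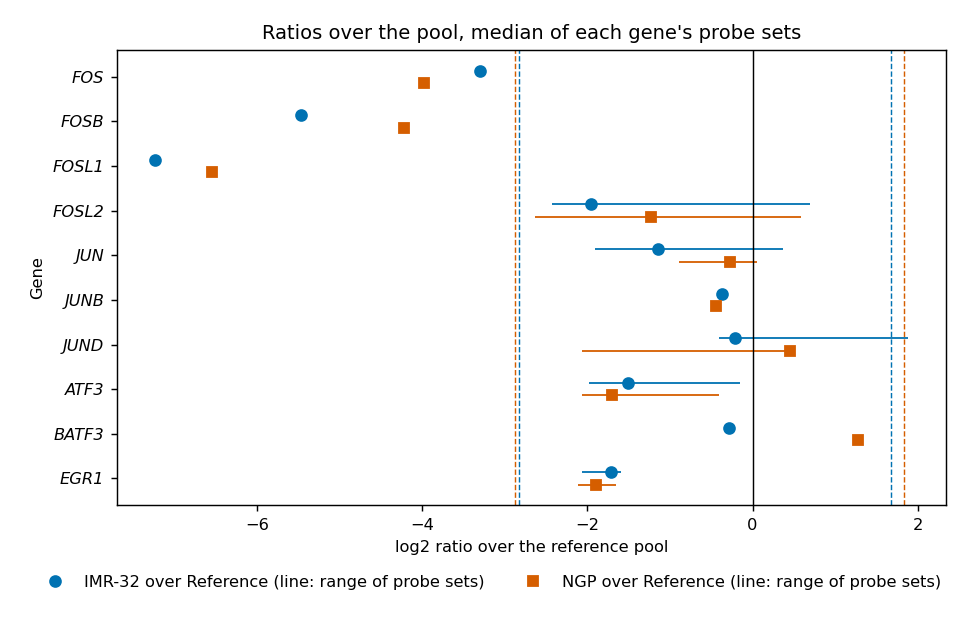
Log2 ratios over the reference pool (x-axis) of the 10 genes (y-axis) in IMR-32 (circles) and NGP (squares), as the median over probe sets, with the range of probe sets as a line and the cut-offs of each line as dashed lines in its colour. FOS, FOSB and FOSL1 lie left of the lower cut-offs of -2.83 and -2.88, and no gene median lies right of the upper cut-offs of 1.68 and 1.84.

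EGR1 (chr5:138465479-138469303) was below the pool in both lines in each of its 3 probe sets. The brightest had signals of 906 in IMR-32, 1200 in NGP and 3784 in Reference, the next 487, 428 and 1594, and the dimmest 95.5, 66.9 and 289. All 3 placed both lines below the pool, and IMR-32 and NGP changed places between them. The log2 ratio of EGR1 over Reference was -1.71 in IMR-32 and -1.90 in NGP, short of the cut-offs, so that the pool was 3.27-fold and 3.72-fold higher. In IMR-32 its probe sets lay between -2.06 and -1.60, and in NGP between -2.11 and -1.66. Among the 5 members with several probe sets, those of EGR1 were the closest together in both lines.

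ATF3 and BATF3 are neighbours at chr1:212565407-212620777 and chr1:212686417-212699840, with 65640 bases between them, and they had different patterns. ATF3, a stress-induced factor of the ATF/CREB family, was below the pool in all 3 probe sets of both lines. Its brightest had signals of 337 in IMR-32, 409 in NGP and 1331 in Reference, and a second had 98.0, 66.6 and 280. The third, at 298, 249 and 332, differed little. The log2 ratio of ATF3 was -1.51 in IMR-32 and -1.70 in NGP. BATF3, which lacks an activation domain of its own, pairs with JUN proteins and is known from dendritic cells, had signals of 145 in IMR-32, 431 in NGP and 178 in Reference from 1 probe set. NGP was highest, and IMR-32 and the pool lay close together. The log2 ratio of BATF3 over Reference was 1.28 in NGP, the highest of the 10 genes there though below the cut-off of 1.84, and -0.29 in IMR-32, or 0.03 with quantile-normalized arrays.

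Set against the pool as a group, all 10 members had a ratio below 0 in IMR-32 and 8 of 10 in NGP, with the exceptions of JUND and BATF3. Over all genes, 58.4% lay below 0 in IMR-32 and 57.7% in NGP. The members' median was -1.61 in IMR-32 and -1.47 in NGP, beside -0.23 and -0.22 over all genes. By probe set, 21 of 24 were below the pool in IMR-32 and 18 of 24 in NGP, where 55.2% and 54.7% of all probe sets were. The only measure of spread in these data is how far probe sets of the same gene differ. Over 10521 genes this came to a standard deviation (SD) of 1.31 for IMR-32 and 1.41 for NGP on the log2 scale. JUN, JUNB, JUND and BATF3 were nearer to the pool than this in IMR-32, and FOSL2, JUN, JUNB, JUND and BATF3 in NGP. This SD describes 1 probe set and is wider than the spread expected of a median over several. It holds no variation between arrays or cultures, so that it is not the full error of a ratio. With 1 array per sample, no difference given here has a replicate check and no p-value was computed.

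Several markers of cell types also differed between the pool and both lines, and the cancer types in the pool are not given. All 4 epithelial markers (EPCAM, KRT8, KRT18 and KRT19) were called lower in both lines, and their log2 ratios reached -8.16 in IMR-32 (KRT18) and -8.70 in NGP (EPCAM). KRT8 and KRT18 had signals above the median of each line's array. Those of EPCAM and KRT19 lay below it, so that the size of their ratios is not firm. Of 6 sympathoadrenal markers measured, 3 were called higher in IMR-32 (PHOX2A, HAND2 and ISL1) and 6 in NGP, while DBH and TH, of the catecholamine pathway, were at -0.33 and -1.40 in IMR-32. Of 5 mesenchymal-type markers (PRRX1, VIM, FN1, CD44 and YAP1), all had ratios below 0 in both lines, with medians of -2.21 in IMR-32 and -1.02 in NGP. CD44 and YAP1 were called lower in NGP, from median signals (33.7 and 36.7) below the median of that array. The part of these cell types in the ratios of FOS, FOSB and FOSL1 was not tested. A high pool signal can come from few of the 16 lines or from many, and fewer expressing cells and less RNA per cell cannot be told apart.

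The direct comparison of NGP with IMR-32 does not rest on the pool. None of the 10 members passed its cut-offs of -1.84 and 1.94, so that 0 were called lower and 0 higher, where 7% of all genes are at each end. The members' median log2 ratio of NGP over IMR-32 was 0.61, beside 0.02 over all genes, with 6 members above 0 and 4 below. BATF3 had the largest difference, at 1.57, or 2.97-fold higher in NGP, and was the only member beyond the SD between probe sets here (1.28). It was called higher with the top 10%, with log2(signal + 32) and with dim signals raised to the array median. FOSB was at 1.25 and FOSL1 at 0.70, both from signals below the array medians. JUN was higher in NGP by 0.84 (1.79-fold), with 3 of 4 probe sets in that direction, at 0.66, 1.02 and 1.08, and the fourth at -0.32. JUND was at 0.70, with 3 probe sets at 0.68, 0.72 and 0.86 and the dim one at -3.95, which turned the gene to -0.42 when the mean was taken. FOSL2 was at 0.53, from probe sets between -2.61 and 3.01. JUNB (-0.07), EGR1 (-0.18) and ATF3 (-0.26) differed little between the lines, and FOS was at -0.68 from dim signals.

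**Figure D3:**
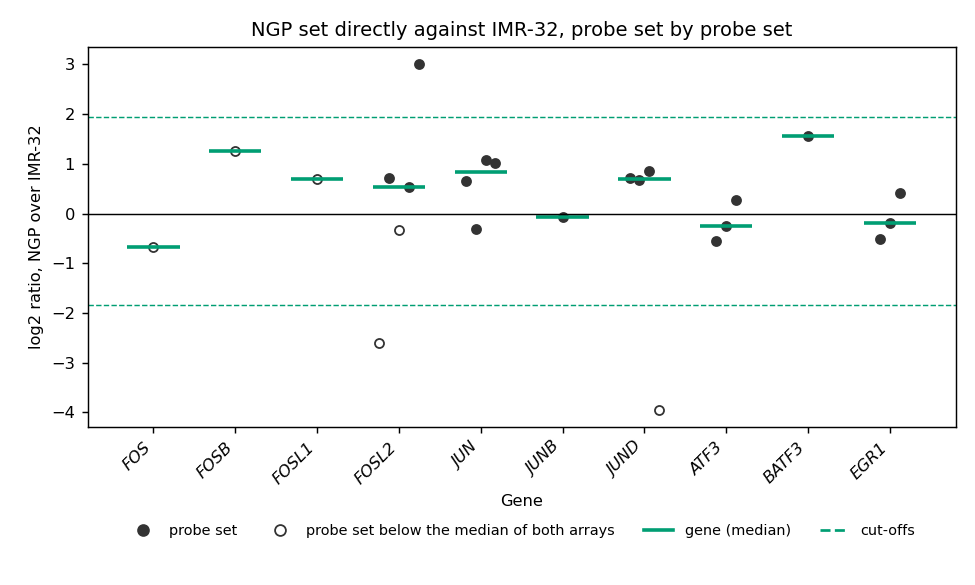
Log2 ratios of NGP over IMR-32 (y-axis) for each probe set of the 10 genes (x-axis), with open circles for probe sets below the median of both arrays, the gene's median as a green bar and the cut-offs of -1.84 and 1.94 as dashed lines. BATF3 has the highest gene median (1.57), and the most discordant probe sets of JUND and FOSL2 on the lower side are dim in both arrays.

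The other genes of the pathway are given by list, where 7% of all genes are called at each end of each comparison. Of 9 further AP-1 and partner genes measured, BATF alone was called lower in each line over the pool (-2.87 in IMR-32 and -3.80 in NGP, from signals below the array medians) and none higher. Their medians were -0.62 and -0.67. Of 13 other immediate early transcription factors, EGR3 (-2.88 and -6.88) and KLF4 (-3.23 and -4.02) were called lower in both lines and none higher, with medians of -0.44 and 0.04. EGR3, a relative of EGR1, was also called lower in NGP than in IMR-32 (-4.01), from signals below the medians of both arrays. NR4A3, a nuclear receptor gene, was called higher in NGP (15.9-fold), from signals below the median of the IMR-32 array. Its 3 probe sets disagreed, with 2 higher in NGP and 1 lower, between -2.43 and 4.82. Of 14 upstream regulators, 1 was called lower and 1 higher in each line, which is near the share over all genes. RPS6KA1, an ERK-activated kinase, was called lower in both lines (-2.86 and -3.33). NAB2, a corepressor of EGR1, was called higher in IMR-32 (1.83, from 2 probe sets at 0.60 and 3.07) and was at 1.17 in NGP. MAPK8, the kinase JNK1 that phosphorylates JUN, was called higher in NGP (2.05) and in IMR-32 (1.62) missed the cut-off of 1.68 narrowly. The medians of the regulators were 0.03 in IMR-32 and 0.07 in NGP.

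Of 14 textbook AP-1 target genes measured, 6 were called lower in IMR-32 and 6 in NGP, beside 7% of all genes at each end. PLAU, the urokinase gene (-5.62 and -4.58), TIMP1 (-4.06 and -4.63), CXCL8 (-5.60 and -3.66) and IL6 (-4.13 and -4.01) were called in both lines. Of these, TIMP1 alone had signals above the median of each line's array (354 for IMR-32 and 238 for NGP), and the median signals of PLAU, CXCL8 and IL6 lay below them, so that their calls stand on dim signals and the size of their ratios is not firm. MMP1 and MMP10 were called in IMR-32 alone, and HMOX1 and CD44 in NGP alone, all from median signals below the array median of the line, and in NGP MMP1 (-2.86) missed the cut-off narrowly. CCND1, the cyclin D1 gene, was called higher in NGP (2.17) and was at 1.31 in IMR-32. The medians of the targets were -2.37 and -2.68. In NGP over IMR-32, 0 of the 14 targets were called, with a median of 0.21. For a list of this size, a count of 0 is near the 7% of all genes called at each end. Many of these target genes are also made by epithelial or mesenchymal cells that the pool may hold, and their link to the members' levels was not tested.

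**Figure D4:**
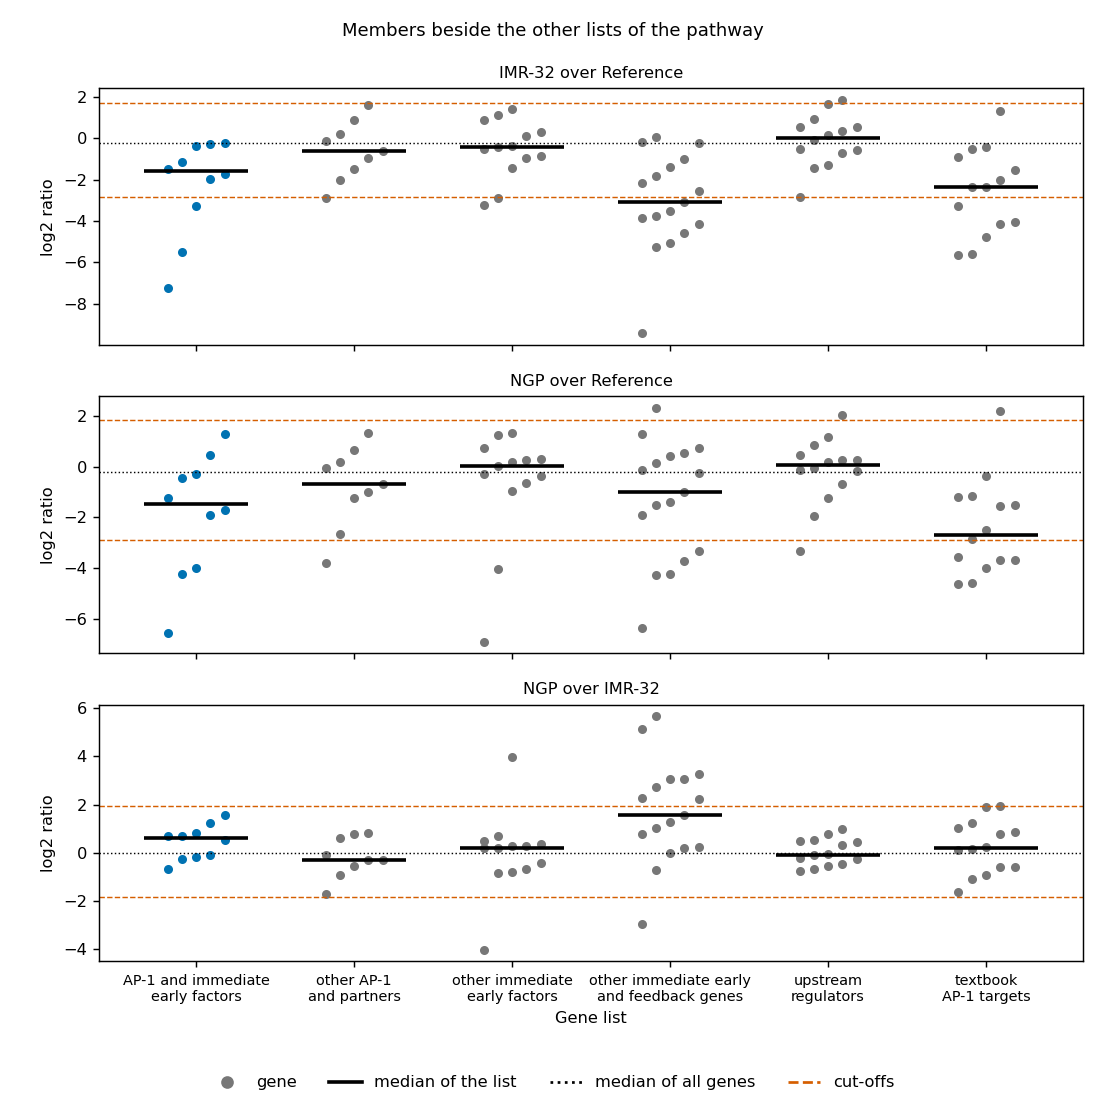
Log2 ratios (y-axis) of the 10 members (blue) and of the genes of 5 further lists (grey) in each comparison (panels), by list (x-axis), with the median of each list as a bar, the median of all genes as a dotted line and the cut-offs as dashed lines. Over the pool the members' medians of -1.61 and -1.47 lie above those of the AP-1 targets (-2.37 and -2.68) and below those of the upstream regulators (0.03 and 0.07).

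Genes with the pattern most like a member were sought by the distance between log2 ratios over Reference in both lines, among 13301 other genes whose highest signal was at or above its array's median. For FOSL1, the lowest member, these were TPD52L1 (distance 0.16), PRR15L (0.20) and AZGP1 (0.39). For BATF3, the member with the highest mean ratio, they were KCNAB1 (0.04), AP1S2 (0.04) and GDF7 (0.09). The measure rests on 2 ratios that share the pool array.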

How the data were processed

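The deposited values are signal intensities of 1 Affymetrix U133 Plus 2.0 array for each of the 3 samples, which the authors computed by MAS5 using affy in Bioconductor (version not given in the sources used here). Every array had been scaled to a trimmed mean of 500 (2% trimmed at each end), all signals were above 0, and medians were 89.9 to 119. Detection calls were not used here, and the number of arrays limits the precision.

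Of 54675 probe sets, 62 are controls, 41091 name 1 gene, 1801 several and 11721 none in the annotation used here. Those naming 1 gene were used. Current symbols came from the RefSeq gene table (GRCh38.p14), with 41037 matched by gene ID. Log2 ratios were taken without a pseudocount, and genes within the top or bottom 7% (1383 genes) were called. All members and the list genes that passed a cut-off were to be named, with the 3 genes nearest in pattern to the lowest and the highest member. Members and lists were chosen with earlier results of these data known. Effects of 10 other settings, and of 1 added after the data were seen, are given in the closing section. The computation of ratios and calls was checked on simulated arrays with known shifts. This checks the arithmetic and not whether a call in these data is right. Some genes of the lists, and the copy number arrays, were not analysed here. Of 3 haematopoietic markers, CD3E was called lower in IMR-32. Python 3.11.15, numpy 2.4.6, pandas 2.3.3 and matplotlib 3.10.9 were used.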

Additional observations from a re-analysis of the deposited data

Results flagged for a closer look

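JUND and BATF3 lay below the pool in IMR-32 and above it in NGP. The log2 ratio of JUND was -0.22 in IMR-32 and 0.46 in NGP, and that of BATF3 was -0.29 in IMR-32 and 1.28 in NGP. None of these 4 values passed a cut-off, and with 1 array per line the difference was not tested.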

How the results depend on the processing

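FOS, FOSB and FOSL1 were called lower in both lines under each of 10 other settings and with a floor added after the data were seen. Each has 1 probe set, so that 4 of the 10 (brightest probe set, mean over probe sets, dim probe sets left out, and _s_at and _x_at probe sets left out) could not move its ratio and tested only the cut-offs. FOS, FOSB and FOSL1 passed the filter on dim probe sets through the pool signal alone. Cut-offs over all probe sets, and the top and bottom 5% or 10%, also left their ratios as they were. The wider 10% could not remove a call. Centring shifted ratios and cut-offs alike and could not change a call. Quantile-normalized arrays, log2(signal + 32) and the floor could move the ratios themselves against the cut-offs. With that floor, signals below the array median raised to it, the cut-offs narrowed to -1.38 in IMR-32 and -1.35 in NGP and 5 members were called lower in IMR-32 and 5 in NGP, ATF3 and EGR1 being added, and 1 was called higher in NGP, BATF3. In NGP over IMR-32, 1 member, BATF3, was called higher with log2(signal + 32), with the top 10% and with the floor, and 0 under the others. Of 321 single ratios recomputed, 313 kept their side of the cut-offs, and 8 passed a cut-off newly, those of ATF3, EGR1 and BATF3. In 10 of the 321 the sign changed, none of them in a called value, for JUND, BATF3, FOS, ATF3 and EGR1. FOSB was the called gene that moved most, to -1.55 in IMR-32 and -1.42 in NGP with the floor. FOS, FOSB and FOSL1 had no value in NGP over IMR-32 without dim probe sets, nor JUND and EGR1 without probe sets ending in _s_at and _x_at. No paired analysis was possible because each group has 1 array.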

Other observations

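Outside the 10 members, a list of 17 measured immediate early and feedback genes, several of which are induced by MAP kinase signals, differed between the lines. Over Reference, 9 of the 17 were called lower in IMR-32 and 5 in NGP, with medians of -3.08 and -0.98. Set directly against IMR-32, 8 were called higher in NGP and 1 lower, with a median of 1.57, beside 7% of all genes at each end and a median of 0.02.

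Among the genes higher in NGP were the ERK inhibitors DUSP6 (2.29), SPRY2 (3.29) and SPRY4 (5.14) and the phosphatase gene DUSP2 (5.67). In IMR-32 the signals of DUSP2 (9.04), SPRY4 (28.6), SGK1 (63.4) and ARC lay below the array median of 89.9, as did 1 of 3 DUSP6 probe sets, so their ratios are uncertain in size. SPRY2 and IER3 were above the medians in both lines. SPRY4 had signals of 28.6 in IMR-32, 1007 in NGP and 411 in Reference, and SPRY2 of 138, 1350 and 818 in the same order. ARC, an activity-regulated gene of neurons, was at 2.25 (signals of 55.7, 265 and 53.7) and was called higher in NGP over the pool (2.30). IER3 was at 3.08, SGK1 at 2.75 and CCN2 at 3.06, the last from dim signals in both lines. PHLDA1 was lower in NGP (-2.96). CCN1, ZFP36 and GADD45B were called lower than the pool in both lines. The median signals of ZFP36 (16.3 in IMR-32 and 27.9 in NGP) and GADD45B (21.7 and 25.0) lay below the array medians, so the size of their ratios is uncertain. For CCN1, 1 of 2 probe sets was below the median in NGP. In NGP over IMR-32 the 10 members had a median of 0.61, with 6 above 0 and 4 below, and 0 were called. Those below 0 were FOS (-0.68, from dim signals), ATF3 (-0.26), EGR1 (-0.18) and JUNB (-0.07). Why the immediate early and feedback genes differed between the lines was not tested.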
